A study of Mus musculus with 6 samples.

Results

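The unfolded protein response and the integrated stress response were followed across cultured aortic endothelial cells through 36 genes. The genes were chosen by symbol from a list of known components of both responses, with earlier results of these data known. All 36 were found among the 54532 genes of the count table. They comprise 14 chaperones and folding enzymes of the endoplasmic reticulum (ER), 4 genes of ER-associated degradation, 4 stress sensors and their transcription factors, and 14 genes of the ATF4 branch. Gene expression had been measured by bulk RNA-seq in primary mouse aortic endothelial cells, 3 libraries from female and 3 from male mice. Every library carries the genotype label Oct4 KO, an endothelial-specific deletion of the pluripotency factor OCT4, and the cells were grown without treatment in medium with serum, heparin and endothelial growth factors. The sources used here do not give the promoter that drove the deletion, the age or strain of the mice, or whether each library had its own culture or animal. P-values therefore measure spread between samples that may be technical. Wild-type littermate cells were not analysed here, so the comparison is between female and male cells that share the deletion, and nothing below measures an effect of the deletion.

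When unfolded proteins gather in the ER, the sensors IRE1 (Ern1), PERK (Eif2ak3) and ATF6 are released from the chaperone BiP. IRE1 splices the Xbp1 message and ATF6 is cut by Golgi proteases, and the resulting transcription factors raise chaperones, folding enzymes and the degradation machinery. PERK instead phosphorylates the translation factor eIF2, as do other kinases that sense amino acid shortage, viral RNA or haem loss, and this favours translation of ATF4. ATF4 raises genes of amino acid uptake and synthesis, tRNA charging and the stress factor CHOP. Endothelial and fibroblastic cells secrete much matrix protein and so rely on ER folding capacity. Neither splicing nor phosphorylation is visible in gene counts.

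Total counts were 19299742 to 23064738 per library. Levels are given as counts-per-million (CPM) over the effective library size, the total count times the TMM factor, and in the order of replicates 1, 2 and 3. Of 12 endothelial marker genes, 8 had too few counts to be tested. Cldn5 and Emcn had 0 counts in each of the 6 libraries (a limit of up to 0.154 CPM), and Cdh5, the VE-cadherin gene, had 0, 4 and 0 counts in female and 2, 0 and 3 counts in male libraries. The endothelial list summed to 147 to 174 CPM in female and 258 to 325 CPM in male libraries, and rested on 2 genes that differed in opposite directions: Eng, at 92.2 ± 8.93 against 253 ± 31.9 CPM, and Flt1, at 57.7 ± 8.13 against 27.6 ± 3.56 CPM (SD, n = 3). The 6 fibroblast markers summed to 14046 to 15550 CPM in female and 5996 to 6481 CPM in male libraries, so the marker levels go against the endothelial label in both sexes. The difference between these sums rested mostly on Dcn (6375 ± 448 against 442 ± 58.7 CPM) and Lum (1686 ± 34.2 against 138 ± 10.4 CPM). Of the 6 markers, 4 were called higher in female cells, 1 was called lower and 1 was not called. Smooth muscle markers summed to 3.62 to 5.68 CPM in female and 22.2 to 25.8 CPM in male libraries, and leukocyte markers to 13.9 to 17.4 and 52.8 to 64.4 CPM, with Ptprc at 0 counts throughout. The smooth muscle sum rested mostly on Acta2 (3.71 ± 0.696 against 23.3 ± 1.75 CPM). The leukocyte sum rested on Lyz2 (9.89 ± 1.13 against 54.6 ± 6.03 CPM), while Cd68 was higher in female cells (5.78 ± 1.07 against 2.41 ± 0.986 CPM). Of the plasma cell markers, which would mark a professional secretory cell, Jchain and Mzb1 had at most 4 counts in any library, while Sdc1, also made by stromal cells, carried nearly the whole sum of 315 to 377 CPM. Sdc1 was not called between the sexes. The remaining marker Prdm1 was rare but higher in female cells, with 37, 20 and 31 counts against 0, 2 and 2 in male libraries (log2 4.45 ± 0.73, edgeR adjusted p = 5.09e-05). The part of these markers in the results below was not tested. In bulk RNA, fewer cells that express a gene and less of its RNA per cell cannot be told apart.

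The branches of the response differed between the sexes in opposite directions. Of the 14 ER chaperone genes 12 were lower and 1 was higher in female cells, and of the 14 ATF4 genes 10 were higher and 1 was lower. Over all 36 genes 15 were higher, 14 were lower and 7 were not called, by edgeR's quasi-likelihood test at an adjusted p under 0.05 over 14814 tested genes. Most expressed genes differed between these cultures, so the counts need that background: 60.7% of all tested genes were called, 30.9% as higher and 29.8% as lower in female cells, against 80.6% of the 36 genes, 71.4% of the ATF4 genes as higher and 85.7% of the ER chaperone genes as lower. No overlap in CPM between the sexes was seen for 29 of the 36 genes and for 67.1% of all tested genes. The median log2 fold change, female minus male, was -0.45 over the ER chaperones, 0.56 over the ATF4 genes and -0.01 over all tested genes.

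**Figure D1:**
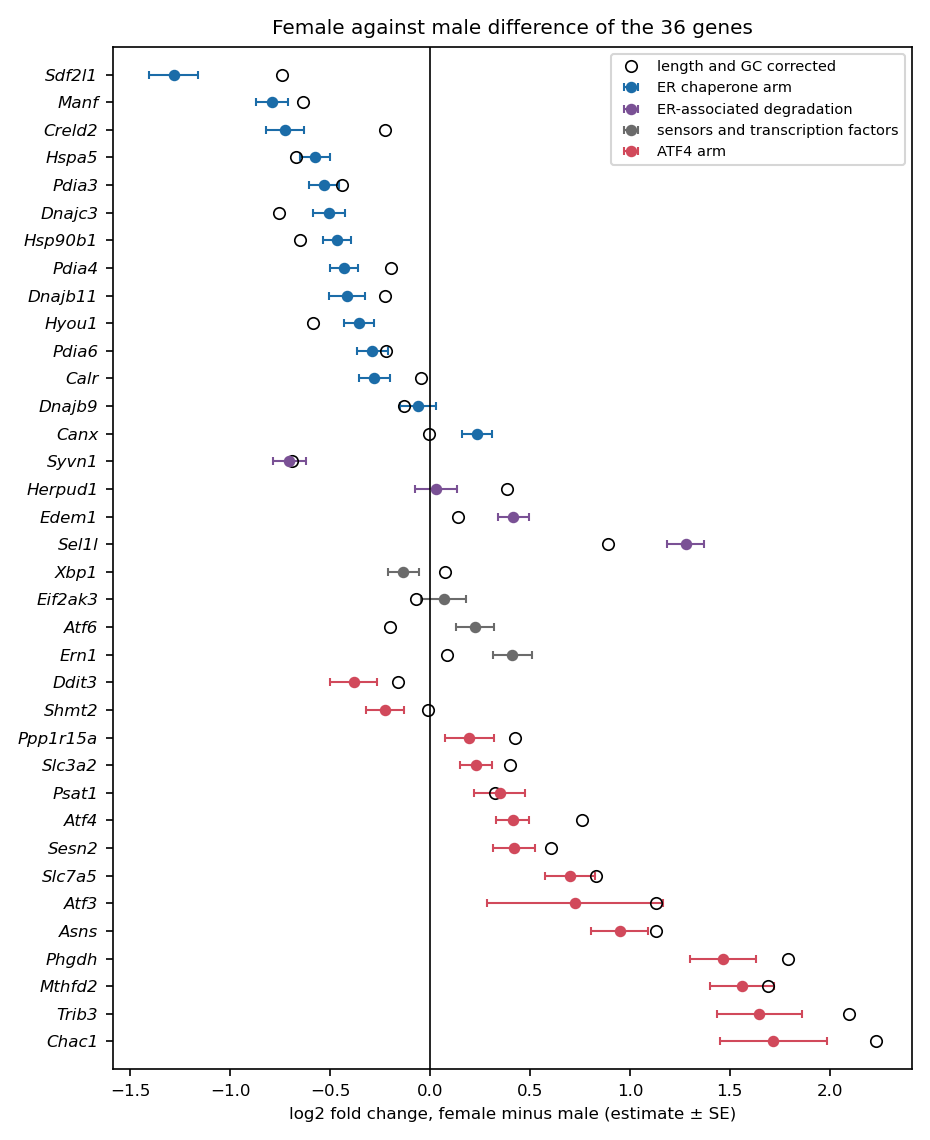
Log2 fold change, female minus male, of the 36 genes grouped by role (filled points, edgeR estimate with SE as bars, 3 libraries per sex; open circles, estimate after correction for gene length and GC content). All ER chaperones but Canx lie left of zero, and 12 of the 14 ATF4 genes lie right of it.

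The ER chaperones include some of the messages with the highest CPM in these cells, and female cells carried less of them. Pdia3, Calr, Hsp90b1 and Hspa5 ranked 46, 47, 62 and 63 among the 14814 tested genes by mean CPM. Together the 14 genes took 0.582% ± 0.025 of all counts in female and 0.828% ± 0.012 in male libraries (SD, n = 3 each). TMM factors were 0.948 to 0.968 in female and 1.03 to 1.06 in male libraries, so the difference depends on the scaling. Over the effective library sizes, the summed CPM of the 14 genes was 23.8% lower in female cells. These 4 genes made up 64.8% to 69.0% of that sum. Hspa5 (ENSMUSG00000026864, chromosome 2, 34771970 to 34777547; mm10 here and below) encodes BiP, the HSP70 chaperone of the ER that also holds the sensors inactive. It stood at 914, 839 and 938 CPM in female and 1386, 1345 and 1286 CPM in male libraries. Every male library lay above every female library, and the gene was 1.49-fold lower in female cells (log2 -0.58 ± 0.08, edgeR adjusted p = 4.55e-06). Hsp90b1 (ENSMUSG00000020048, chromosome 10, 86690209 to 86705509), the ER member of the HSP90 family, stood at 953, 936 and 942 CPM in female and 1333, 1258 and 1319.7 CPM in male libraries, again without overlap (log2 -0.47 ± 0.07, adjusted p = 2.42e-05). Pdia3, a disulfide isomerase that works with the lectin chaperones on glycoproteins, was at 1008, 992 and 1029 CPM in female and 1521, 1502 and 1349.7 CPM in male libraries (log2 -0.53 ± 0.08, adjusted p = 1.14e-05), where the sexes did not overlap either.

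Without a correction for gene length and GC content, the largest differences of the group lay in the less abundant genes Sdf2l1, Manf and Creld2. With it they lay in Dnajc3 (log2 -0.75), Sdf2l1 (-0.74) and Hspa5 (-0.67), and Creld2 was at -0.23. Sdf2l1 (ENSMUSG00000022769, chromosome 16, 17130138 to 17132383), which encodes a partner of the ER HSP40 proteins, was at 12.8, 11.6 and 12.3 CPM in female and 30.6, 27.8 and 31.0 CPM in male libraries. The male libraries lay well above the female ones, by 2.43-fold (log2 -1.28 ± 0.12, edgeR adjusted p = 1.06e-07). Manf (ENSMUSG00000032575, chromosome 9, 106838312 to 106891979), a secreted and ER-resident stress factor, was at 133, 119.9 and 129.7 CPM in female and 219, 236 and 207 CPM in male libraries, 1.73-fold lower in female cells (adjusted p = 2.74e-07). The annotated span of Manf holds Rbm15b on the same strand and overlaps Dcaf1 on the other, so its counts are uncertain. Creld2 (ENSMUSG00000023272, chromosome 15, 88819646 to 88826683), a disulfide isomerase-like protein, was at 42.5, 37.3 and 44.6 CPM in female and 70.5, 70.6 and 64.6 CPM in male libraries, 1.65-fold lower (adjusted p = 3.91e-06). None of the 3 genes overlapped between the sexes.

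The remaining genes of the group were lower as well, except Canx and Dnajb9. Dnajc3 (p58IPK), a co-chaperone of BiP that also binds PERK, was at 166, 168 and 159 CPM in female and 243, 215 and 243 CPM in male libraries (log2 -0.51 ± 0.08, adjusted p = 3.05e-05). The isomerases Pdia4 and Pdia6, the co-chaperone Dnajb11, the nucleotide exchange factor Hyou1 and the lectin chaperone Calr had log2 fold changes of -0.43, -0.29, -0.42, -0.36 and -0.28, all called lower. Calr, calreticulin, was the least of them, at 1155, 1025 and 1144 CPM in female and 1327, 1439.7 and 1264 CPM in male libraries. Its membrane-bound counterpart Canx, calnexin, went the other way, at 631, 639.8 and 620.2 CPM in female and 544, 497 and 565 CPM in male libraries (log2 0.24 ± 0.08, adjusted p = 0.0123). The female libraries of Canx lay above the male ones without overlap, but the call was lost without male replicate 2 (log2 0.17, adjusted p = 0.0677) and with upper quartile or total count scaling. Dnajb9 (ERdj4), a co-chaperone that recruits BiP to IRE1, overlapped at 68.9, 75.8 and 71.5 CPM in female and 83.0, 67.2 and 75.1 CPM in male libraries and was not called (adjusted p = 0.594).

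Levels of different genes can be set side by side only per length. In CPM per kilobase, male cells held 467 ± 30.9 of Calr, 464 ± 30.0 of Pdia3, 323 ± 9.91 of Hsp90b1 and 317 ± 12.0 of Hspa5 (SD, n = 3). The order in female cells was the same for Calr and Pdia3, at 385 ± 25.0 and 322 ± 5.86, with Hsp90b1 and Hspa5 at 234 ± 2.20 and 212 ± 12.2. In the male libraries the levels of Calr and Pdia3, and those of Hsp90b1 and Hspa5, differed by less than their spread. Sdf2l1 was the least abundant chaperone of the group in both sexes, at 11.1 ± 0.575 in female and 26.9 ± 1.57 in male cells, where Dnajb9 came next at 29.4 ± 3.10.

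Chaperone genes are known to share the ER stress response element (ERSE), to which ATF6 and the factor NF-Y bind, and the promoters of the group were searched for it. The search used 300-base windows, 250 bases before to 50 after the start, from the RefSeq promoter table (GRCm38.p6, the same assembly as mm10), which held 32 of the 36 genes. Hyou1, Atf6, Slc7a5 and Manf were not in it. The ERSE was searched on both strands as CCAAT, then 9 bases, then CCACG. It lay in 39 of 32851 promoters of the table (0.119%), in 7 of the 12 ER chaperone promoters (Calr, Canx, Creld2, Dnajc3, Hsp90b1, Hspa5 and Pdia6), in that of Syvn1, and in 0 of the 13 ATF4 promoters. The related ERSE-II, searched as ATTGG, then 1 base, then CCACG, lay in 12 promoters (0.0365%), among them Dnajb11 and Herpud1. Only exact matches were counted, and a match describes letters, not binding.

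The whole window of Hspa5 is shown first, because BiP is the reference target of the response, with the matched bases of the element in capitals. The sites of 4 further chaperones that were lower in female cells, and that of Canx, which was higher, follow with 10 flanking bases on the strand that reads CCAAT or, for Dnajb11, ATTGG first.
Hspa5, chr2:34771840-34772139, plus strand: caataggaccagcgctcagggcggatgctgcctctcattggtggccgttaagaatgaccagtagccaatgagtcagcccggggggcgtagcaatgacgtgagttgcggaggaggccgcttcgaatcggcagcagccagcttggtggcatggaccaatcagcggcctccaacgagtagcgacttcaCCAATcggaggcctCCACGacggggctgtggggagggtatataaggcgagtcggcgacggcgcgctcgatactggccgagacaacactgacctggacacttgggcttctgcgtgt
Creld2, chr15:88819510-88819548, minus strand: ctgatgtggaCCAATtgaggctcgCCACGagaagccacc
Dnajc3, chr14:118937817-118937855, plus strand: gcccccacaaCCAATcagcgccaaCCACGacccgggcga
Hsp90b1, chr10:86705523-86705561, plus strand: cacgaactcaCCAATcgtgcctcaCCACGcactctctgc
Hsp90b1, chr10:86705628-86705666, minus strand: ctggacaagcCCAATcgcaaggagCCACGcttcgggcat
Dnajb11, chr16:22857842-22857872, plus strand: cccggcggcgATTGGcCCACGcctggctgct
Canx, chr11:50325790-50325828, minus strand: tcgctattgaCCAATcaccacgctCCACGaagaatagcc
Hsp90b1 holds the element at 2 places, on opposite strands. In the ERSE sites the capitals are identical by construction of the search, while the 9 bases between them differ from site to site. The element stood in promoters of genes that were lower in female cells and in that of Canx, which was higher.

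Of the 4 degradation genes 2 were higher, 1 was lower and 1 was not called. These are too few to set against the 30.9% of all tested genes that were higher and the 29.8% that were lower. Sel1l and Syvn1, partner subunits of the ubiquitin ligase complex that retrotranslocates misfolded proteins from the ER, differed in opposite directions. Sel1l (ENSMUSG00000020964, chromosome 12, 91806043 to 91849157), the adaptor, was at 242, 246 and 213 CPM in female and 97.0, 85.7 and 106 CPM in male libraries, 2.43-fold higher in female cells (log2 1.28 ± 0.09, edgeR adjusted p = 3.09e-09). Syvn1 (ENSMUSG00000024807, chromosome 19, 6046576 to 6053712), the HRD1 ligase itself, was at 67.4, 65.5 and 72.0 CPM in female and 106, 117 and 111 CPM in male libraries, 1.63-fold lower (log2 -0.70 ± 0.08, adjusted p = 1.15e-06). Neither gene overlapped between the sexes, and the end of Syvn1 overlaps Mrpl49 on the other strand. Per kilobase, Sel1l stood at 27.3 ± 2.09 CPM against 14.3 ± 0.694 for Syvn1 in female cells, and at 11.3 ± 1.19 against 23.3 ± 1.12 in male cells, so that the order of the partners was reversed between the sexes. These levels carry no length and GC correction. With it the fold changes were log2 0.89 for Sel1l and -0.69 for Syvn1, and the order of the levels was not checked again. Edem1, a lectin that extracts glycoproteins for degradation, was at 120.3, 131 and 118 CPM in female and 91.4, 94.99 and 90.3 CPM in male libraries (log2 0.42 ± 0.08, adjusted p = 0.000227). Herpud1, a scaffold of the same complex, was at 45.1, 52.6 and 60.8 CPM in female and 53.0, 50.1 and 52.2 CPM in male libraries, with the male values inside the female range, and was not called.

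Of the 4 sensor genes 2 were higher and 2 were not called, and the largest difference was 0.41 on the log2 scale. Over all tested genes 30.9% were higher and 29.8% lower, and 4 genes are too few to set against those shares. Ern1, which encodes IRE1, was at 152, 179 and 140.4 CPM in female and 121, 107 and 126 CPM in male libraries, with the female libraries above the male ones (log2 0.41 ± 0.10, edgeR adjusted p = 0.00137). Correcting for length and GC content ended that call (log2 0.09, adjusted p = 0.366). Eif2ak3, the PERK gene, overlapped at 44.5, 53.2 and 47.4 CPM in female and 50.1, 38.3 and 49.9 CPM in male libraries and was not called (adjusted p = 0.624). Atf6 was at 72.3, 80.1 and 65.5 CPM in female and 61.7, 57.2 and 67.2 CPM in male libraries. Its sexes overlapped, its adjusted p of 0.0497 lay at the threshold, and of 16 alternative settings 9 lost the call and 2, both with the length and GC correction, reversed the direction. Xbp1, the target of IRE1, was the most abundant of the 4 at 245, 229.6 and 244 CPM in female and 255, 285 and 249 CPM in male libraries. Its female values lay below the male ones by a small margin and it was not called (log2 -0.13 ± 0.08, adjusted p = 0.15), but upper quartile scaling (-0.21, adjusted p = 0.0288) and total counts (-0.25, adjusted p = 0.0102) put it among the lower genes.

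Female cells carried more RNA of the ATF4 branch, and the largest differences lay in Chac1, Trib3, Mthfd2 and Phgdh. Atf4 itself (ENSMUSG00000042406, chromosome 15, 80255184 to 80257541) was at 223, 254 and 269 CPM in female and 193, 178 and 189.6 CPM in male libraries. The female libraries lay above the male ones, by 1.33-fold (log2 0.41 ± 0.08, edgeR adjusted p = 0.000411). Trib3 (ENSMUSG00000032715, chromosome 2, 152337422 to 152344032), a pseudokinase that damps ATF4 and AKT signalling, was at 11.3, 16.6 and 10.1 CPM in female and 4.22, 3.43 and 4.48 CPM in male libraries. It was 3.13-fold higher in female cells without overlap (adjusted p = 4.03e-06). Chac1 (ENSMUSG00000027313, chromosome 2, 119351229 to 119354381), a glutathione-degrading enzyme and a sensitive ATF4 target, was a rare message with 100, 165 and 148 counts in female and 38, 46 and 53 counts in male libraries. In CPM these were 4.83, 8.45 and 7.50 and 1.80, 2.32 and 2.18, 3.29-fold higher in female cells (log2 1.72 ± 0.27, adjusted p = 3.07e-05). Sesn2, a stress-induced inhibitor of mTORC1, was at 45.1, 55.0 and 52.0 CPM in female and 33.8, 40.9 and 38.9 CPM in male libraries (log2 0.42 ± 0.11, adjusted p = 0.00233), also without overlap.

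Ddit3 was lower, and Ppp1r15a and Atf3 were not called. Ddit3 (ENSMUSG00000025408, chromosome 10, 127290774 to 127296288), which encodes the stress factor CHOP, was at 25.5, 35.0 and 33.7 CPM in female and 39.1, 42.2 and 41.4 CPM in male libraries. All female libraries lay below the male ones (log2 -0.38 ± 0.12, edgeR adjusted p = 0.00959), against the direction of Atf4. The call was lost without female replicate 1 (log2 -0.25, adjusted p = 0.0793) and with a correction for gene length and GC content (-0.16, adjusted p = 0.246). The table holds a further row under the symbol Ddit3, with 0 counts in every library, and the end of Ddit3 overlaps Mars on the other strand. Ppp1r15a, the GADD34 subunit that reverses eIF2 phosphorylation, overlapped at 29.9, 30.6 and 39.8 CPM in female and 28.1, 31.5 and 28.0 CPM in male libraries and was not called (adjusted p = 0.173). Atf3 was barely read, with 36, 52 and 28 counts in female and 20, 35 and 20 counts in male libraries, and at this depth its difference could not be resolved (log2 0.73 ± 0.44, adjusted p = 0.167). With the length and GC correction both Ppp1r15a (log2 0.43) and Atf3 (1.13) were called higher.

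Within amino acid metabolism the difference was uneven along 1 pathway. Serine is made from a glycolytic intermediate by Phgdh and Psat1, and its carbon passes to the mitochondrial folate cycle through Shmt2 and Mthfd2. Phgdh (ENSMUSG00000053398, chromosome 3, 98313170 to 98339990), the entry enzyme, was at 28.4, 47.8 and 46.2 CPM in female and 13.9, 16.3 and 14.1 CPM in male libraries. Every female library held more than any male library, and the mean was 2.76-fold higher (log2 1.47 ± 0.16, edgeR adjusted p = 8.35e-07). Mthfd2 (ENSMUSG00000005667, chromosome 6, 83305691 to 83325908), the folate-cycle dehydrogenase, was at 31.9, 56.1 and 42.7 CPM in female and 14.9, 15.0 and 14.4 CPM in male libraries, 2.95-fold higher (log2 1.56 ± 0.16, adjusted p = 2.79e-07). The enzymes between them stood closer to equal. Psat1 was at 42.2, 65.4 and 58.8 CPM in female and 42.3, 43.7 and 44.7 CPM in male libraries, overlapped because female replicate 1 lay at the male level, and was called at log2 0.35 ± 0.13 (adjusted p = 0.0247). That call was lost without female replicate 2 or 3 or male replicate 1 or 2, at log2 0.22 to 0.33. Shmt2 was at 65.3, 83.7 and 82.3 CPM in female and 89.3, 95.1 and 86.0 CPM in male libraries, with the female values below the male ones and no call (log2 -0.23 ± 0.10, adjusted p = 0.0546), but was called lower with upper quartile or total count scaling (-0.30 and -0.34). Its end overlaps Ndufa4l2 on the other strand. Per kilobase, the ratio of Phgdh to Shmt2 was 0.653 ± 0.095 in female and 0.205 ± 0.010 in male libraries (SD, n = 3).

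Asns and the amino acid transporter subunits were also higher. Asns (ENSMUSG00000029752, chromosome 6, 7675169 to 7693254), asparagine synthetase, was at 57.1, 94.5 and 78.9 CPM in female and 41.8, 43.1 and 34.6 CPM in male libraries, 1.93-fold higher in female cells (log2 0.95 ± 0.14, edgeR adjusted p = 2.08e-05). Slc7a5 and Slc3a2 encode the light and heavy chains of the transporter LAT1, which brings in large neutral amino acids. Slc7a5 was at 46.5, 69.2 and 51.6 CPM in female and 34.7, 36.2 and 32.3 CPM in male libraries (log2 0.70 ± 0.13, adjusted p = 0.000133), and Slc3a2 at 155, 149.6 and 160.3 CPM in female and 127, 145 and 125 CPM in male libraries (log2 0.23 ± 0.08, adjusted p = 0.023). Neither overlapped between the sexes, although the lowest female library of Slc3a2 lay just above the highest male one. The heavy chain, which also pairs with other transporters, exceeded the light chain by 3.01 ± 0.66 times per kilobase in female and 4.04 ± 0.19 times in male libraries (SD, n = 3). The calls of Psat1 and Slc3a2 were lost with total counts or upper quartile scaling, and the call of Slc3a2 also without female replicate 1, female replicate 3, male replicate 1 or male replicate 3.

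**Figure D2:**
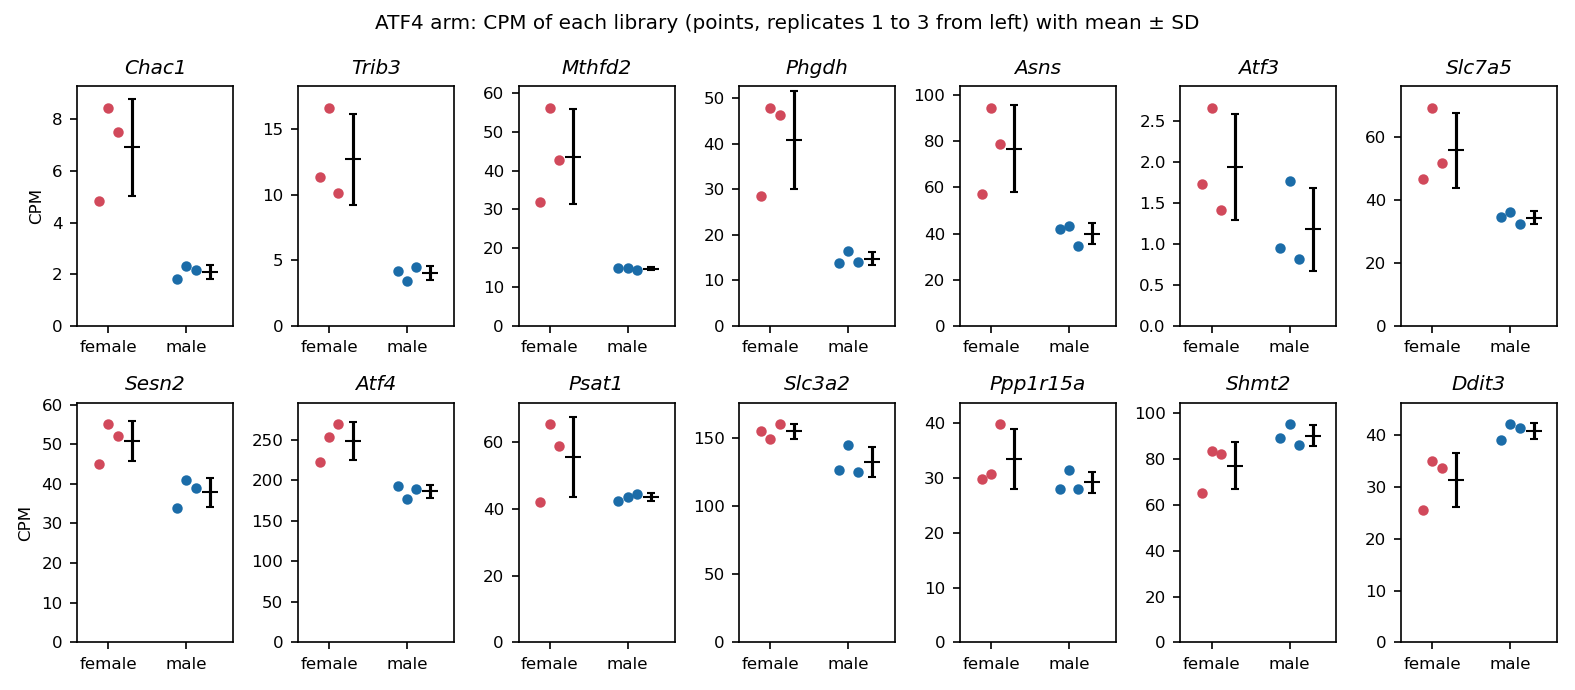
CPM of each of the 14 ATF4 genes in each library (points, replicates 1 to 3 from left to right; bar, mean ± SD; each axis starts at zero). Trib3, Phgdh, Mthfd2 and Asns stand apart between the sexes, while Atf3, Ppp1r15a and Psat1 overlap and Ddit3 and Shmt2 are lower in the female libraries.

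The composite element bound by ATF4 with C/EBP partners was searched in the same promoter windows. The 9-letter form TGATGNAAT lay in 0.965% of all promoters and in 0 of the 13 ATF4 promoters held by the table. The shorter TGATGNAA, added after that result was seen, lay in 3.97% of all promoters and in those of Asns, Atf3, Chac1 and Trib3, and also of Herpud1. The 3 that were called higher are shown with 10 flanking bases, on the strand that reads TGATG first and with the match in capitals.
Chac1, chr2:119351039-119351066, minus strand: ctggcaggagTGATGCAAcggcagggaa
Trib3, chr2:152344029-152344056, plus strand: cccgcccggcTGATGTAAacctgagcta
Asns, chr6:7693215-7693242, minus strand: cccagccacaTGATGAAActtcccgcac
The palindrome TGACGTCA, the cyclic AMP response element, lay in 1.79% of promoters and in that of Ppp1r15a, and TGACGTGG, the core of the unfolded protein response element, lay in 0.676% and in none of the 32 genes. A window without a match says only that these letters are not in it.

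Libraries of the same sex also differed in the ATF4 genes. Per library, each gene was taken as log2(CPM + 1) minus its mean over the 6 libraries and averaged over the genes of an arm. The ER chaperone arm stood at -0.21, -0.28 and -0.19 in female and at 0.25, 0.22 and 0.22 in male libraries. For the ATF4 arm the female libraries stood at 0.06, 0.51 and 0.35 and the male ones at -0.34, -0.23 and -0.34. The ER arm minus the ATF4 arm was -0.27, -0.79 and -0.54 in female against 0.60, 0.44 and 0.56 in male libraries, a female minus male difference of -1.06 with no overlap. The centring makes the means of the sexes mirror each other, so the signs say nothing of the levels. In summed CPM, not scaled by gene length, the ER chaperones exceeded the ATF4 genes in both sexes. The sums were 6064 against 890 CPM in female and 7963 against 672 CPM in male libraries. As a score over chosen genes, the difference of the arms was given no test. Within the female libraries the ATF4 arm ranged widely: female replicate 2 was the highest of the 3 for 11 of the 14 genes and female replicate 1 the lowest for 11. Among the male libraries replicate 2 was the highest for 11 of the 14. Female replicate 2 was also the lowest female library for 10 of the 14 chaperones. Without female replicate 2 the counts were 12 chaperones lower and 9 ATF4 genes higher, and the difference of the arms was -0.93.

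**Figure D3:**
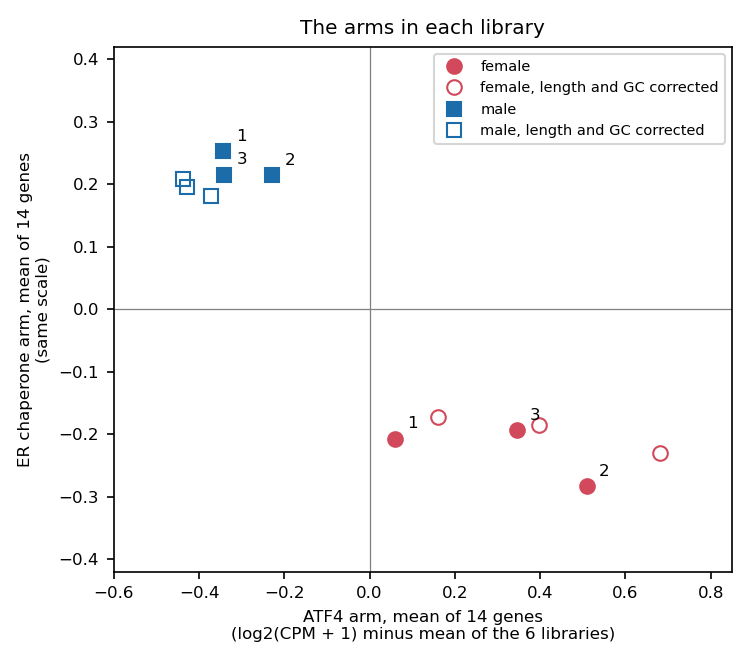
Mean of the 14 ER chaperone genes (vertical) against the mean of the 14 ATF4 genes (horizontal) in each library, as log2(CPM + 1) minus the mean of the 6 libraries; filled points as measured and numbered by replicate, open points after correction for gene length and GC content. The 3 female libraries lie at the lower right and the 3 male libraries at the upper left.

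**Figure D4:**
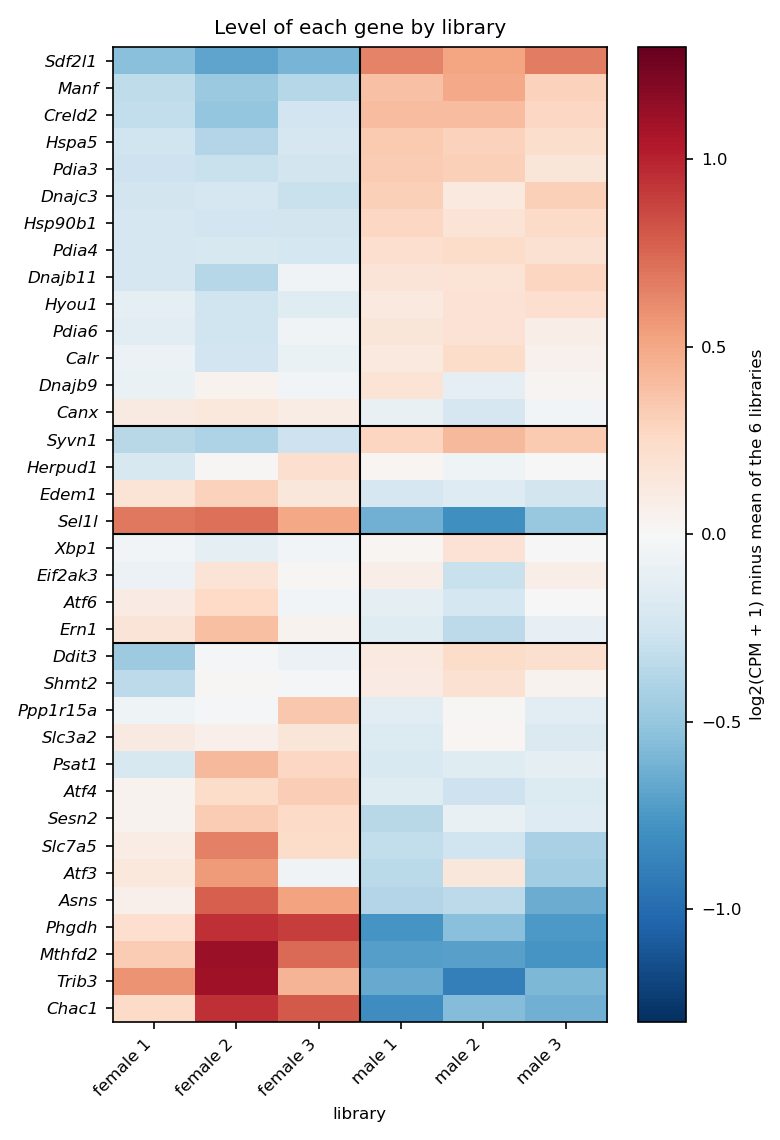
Level of each of the 36 genes in each library, as log2(CPM + 1) minus the mean of that gene over the 6 libraries; lines separate the roles and the sexes. Female replicates 2 and 3 stand above female replicate 1 for Phgdh, Mthfd2 and Chac1, and all 3 above the male libraries.

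Fold changes between these cultures moved with gene length, and the genes had to be read against that. With genes at 5 CPM or more sorted by length into 5 equal classes, the median log2 fold change was -0.40 in the shortest class and 0.39 in the longest. The ER chaperones had a median length of 3380 bases, the ATF4 genes 2836, the degradation genes 5613 and the sensors 7100, against 4012 over all tested genes. Their median GC contents, in the same order, were 48.2%, 55.6%, 50.3% and 50.9%, against 49.4%. The parts of length and GC content in the corrected values below were not separated. A per-library correction for length and GC content left 11 of 14 chaperones lower and 12 of 14 ATF4 genes higher, where 30.3% of all genes were then lower and 28.7% higher. The medians became -0.33 for the chaperones and 0.80 for the ATF4 genes. Hsp90b1 was then at log2 -0.65, Manf at -0.64 and Hyou1 at -0.59. Calr (-0.04), Canx (-0.01), Edem1 (0.14), Ern1 (0.09) and Ddit3 (-0.16) lost their calls, with adjusted p of 0.555, 0.944, 0.0934, 0.366 and 0.246. Atf6 turned to -0.20 (adjusted p = 0.0272). Herpud1 (0.38), Ppp1r15a (0.43) and Atf3 (1.13) were then called higher, with adjusted p of 0.00267, 0.00251 and 0.0403. Sel1l and Syvn1 stayed called in opposite directions, at 0.89 and -0.69.

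Other genes of the same pathways were counted in the same way, beside the 30.9% of all tested genes that were higher and the 29.8% that were lower. Of 33 tested ER folding genes outside the 14, 20 were lower (60.6%), 3 higher and 10 not called, and the median was -0.24 on the log2 scale. With the length and GC correction 21 were lower and 5 higher. The lower genes included the prolyl isomerases Fkbp11 (13.4 ± 1.59 against 51.4 ± 9.81 CPM, log2 -1.94 ± 0.14), Fkbp7 (log2 -1.15) and Fkbp2 (-1.08) and the chaperone Cnpy2 (-1.27). P4hb, the isomerase and prolyl hydroxylase subunit, stood at 1101 ± 60.6 against 1283 ± 25.4 CPM (log2 -0.22 ± 0.07, edgeR adjusted p = 0.0157), a call that the length and GC correction removed (log2 0.04, adjusted p = 0.598), as did leaving out female replicate 2 (-0.17, adjusted p = 0.0559) or male replicate 1 (-0.22, adjusted p = 0.0502). Of 15 tested degradation genes outside the 4, 8 were lower (53.3%) and 3 higher, with a median of -0.32, and with the correction 9 were lower and 1 higher. Selenos, a membrane selenoprotein of the degradation complex, was at 42.4 ± 2.20 against 115 ± 2.06 CPM, and the conjugating enzyme Ube2g2 (-1.04), the mannosidase-like Edem2 (-0.63) and the lectin Os9 (-0.48) were lower as well.

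Of 21 further sensors and eIF2 regulators 14 were lower (66.7%) and 4 higher, and with the length and GC correction 12 were lower and 4 higher. The 4 higher without it were Eif2ak2, Mbtps1, Mbtps2 and Ppp1r15b, of which Mbtps2 and Ppp1r15b were named after their values were seen. Mbtps2 lies on the X chromosome, and the part of this in its difference between the sexes was not tested. Eif2ak2, the interferon-induced and RNA-activated eIF2 kinase PKR, was at 60.8, 71.9 and 63.9 CPM in female and 21.5, 19.6 and 20.4 CPM in male libraries. That is 3.19-fold higher in female cells (log2 1.67 ± 0.10, edgeR adjusted p = 2.87e-10), while its relative Eif2ak3 was not called. The other eIF2 kinase genes, named after their values were seen, did not share that rise. Eif2ak1 was lower (log2 -0.45 ± 0.10, adjusted p = 0.000847) and Eif2ak4 was not called (0.14 ± 0.14, adjusted p = 0.407). The difference between these genes was not tested. Mbtps1, the Golgi protease that cuts ATF6, was at 432 ± 13.9 against 225 ± 13.9 CPM (SD, n = 3). The ATF6-like membrane factors Creb3l1, at 31.9 ± 1.74 against 131 ± 7.54 CPM, and Creb3l2, at 241 ± 10.3 against 552 ± 3.50, were lower in female cells by 4.10- and 2.29-fold.

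Of 37 further ATF4 targets 20 were higher (54.1%), 6 lower and 11 not called, and the median was 0.27 on the log2 scale. With the length and GC correction 21 were higher and 5 lower. The cystine transporter gene Slc7a11 was at 59.3, 74.8 and 55.0 CPM in female and 8.92, 8.98 and 11.8 CPM in male libraries, 6.34-fold higher in female cells (log2 2.66 ± 0.14, edgeR adjusted p = 5.51e-11). The folate enzyme Aldh1l2 (log2 2.00), the branched-chain transaminase Bcat1 (1.83) and the arginine transporter Slc7a1 (1.49) followed. The 6 lower genes, named after their values were seen, were Nupr1 (-1.06), Stc2 (-0.76), Cebpb (-0.49), Mthfd1l (-0.36), Ddit4 (-0.34) and Gars (-0.34). Psph, the enzyme that completes serine synthesis, also named after its values were seen, was not called (12.4 ± 1.58 against 13.9 ± 2.79 CPM).

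**Figure D5:**
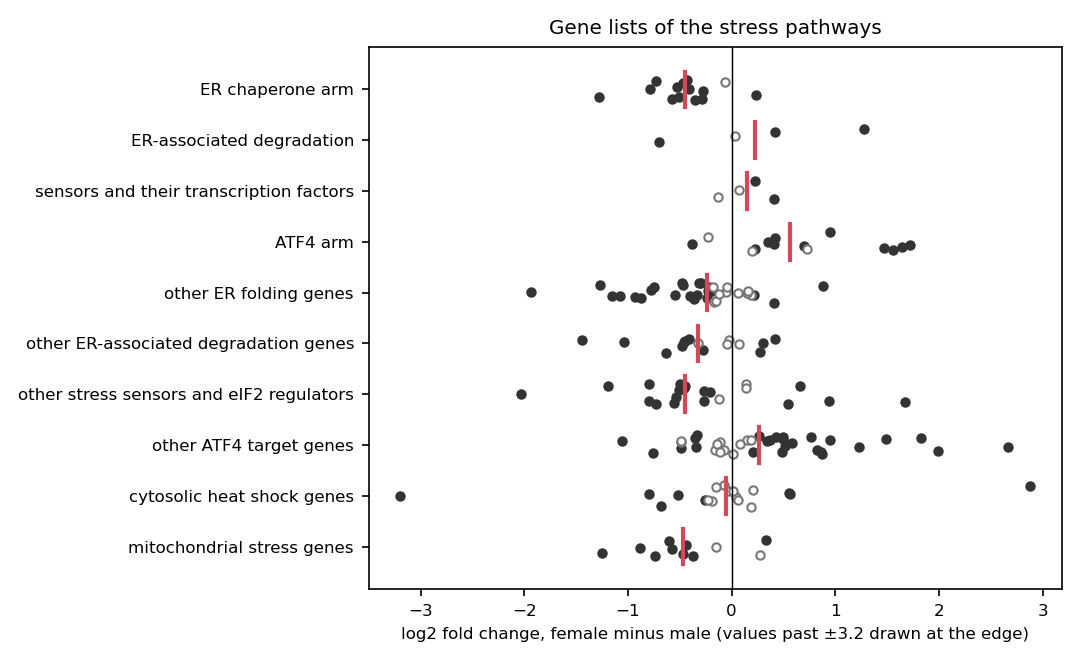
Log2 fold change, female minus male, of every tested gene of each list (filled, called by edgeR; open, not called; red bar, median of the list). The medians of the chaperone and folding lists lie left of zero and those of the ATF4 lists right of it; Cryab is drawn at the left edge.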

How the data were processed

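Per the labels' protocols, polyadenylated RNA was fragmented and copied from random hexamers, by a protocol given for strand-marking and non-marking libraries alike. The submitters' processing notes name HISAT2 2.0.5, featureCounts 1.5 and the build mm10. Strand and multi-mapping settings are not given there or in the labels, so the reads of overlapping genes cannot be told apart. The authors deposited raw counts per gene for 54532 genes, and 0 columns belonged to no sample. The columns were matched to samples by library name. All 37 rows with a symbol of the 36 genes had the same coordinates in GENCODE M21.

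Sexes were compared on those counts with edgeR 4.0.16 in R 4.3.3 (filterByExpr, TMM, glmQLFit, glmQLFTest, two-sided, sex as the only term), with Benjamini-Hochberg adjustment over 14814 genes. SE is the log2 fold change over the square root of F. Alternatives used DESeq2 1.42.0, limma-voom 3.58.1, other scalings and filters, a loess correction (span 0.5) on gene length and GC of the longest GENCODE transcript, a replicate block and each library left out. On counts simulated from the 6 libraries for this comparison (14514 genes), 98% of 100 genes changed by log2 1 and 61% of 100 changed by log2 0.5 were recovered, with 10 false calls. The changed genes all had 5 CPM or more. They were a far smaller share than the 60.7% called in the data, so these rates do not carry over to the measured comparison. Every pair of replicates differed beyond counting noise (chi-square over its degrees of freedom, 8.83 to 20.1). Counts of 0 and their limit of 3 counts cover counting error only, at 95%.

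The genes and lists were chosen with earlier results of these data known, so no list was tested as a set. All 36 genes could be named. Values in every library were planned for the called genes with the largest change (up to 6 per arm), the degradation and sensor genes, those against their arm and those under 5 CPM. Beyond that plan they were also given for Hsp90b1, Calr, Dnajb9, Atf4, Sesn2, Ppp1r15a, Psat1, Shmt2 and Slc3a2. Of each other list, up to 4 called genes with the largest change at 5 CPM or more were named, plus Eif2ak2 and P4hb. Protein sequences were not analysed here.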

Additional observations from a re-analysis of the deposited data

How the results depend on the processing

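The number of lower ER chaperones was 11 or 12 of 14 and that of higher ATF4 genes 8 to 12 of 14 in all 16 alternative settings, and the difference of the arms ran from -1.22 (length and GC correction) to -0.91 (degradation genes counted in the ER arm), with -1.20 to -0.93 when 1 library was left out. The few genes against their arm moved more. The count of higher chaperones, 1 (Canx), became 0 with upper quartile scaling, total counts, the length and GC correction and that correction with the replicate block, and was 0 to 1 when 1 library was left out, 0 without male replicate 2. The count of lower ATF4 genes, 1 (Ddit3), became 2, with Shmt2, under upper quartile scaling, total counts, limma-voom, no low-count filter and protein-coding genes only, 0 with the length and GC correction with or without the replicate block, and was 0 to 2 when 1 library was left out, 0 without female replicate 1 and 2 without female replicate 2 or 3. The calls over all 14814 tested genes moved too. In the main setting 4580 were higher and 4413 lower. Upper quartile scaling gave 4170 higher and 4990 lower, and total counts 3956 higher and 5294 lower, so the lower chaperones stood beside more lower genes there. Total counts moved the median of all genes from -0.01 to -0.13 on the log2 scale.

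Direction changed for genes near zero and, with the length and GC correction, for the called genes Canx, P4hb and Atf6, the last of which was then called lower (adjusted p = 0.0272). Herpud1 was at -0.048 and -0.088 under upper quartile and total count scaling and between -0.082 (without female replicate 3) and 0.13 (without female replicate 1) when 1 library was left out, also below zero without male replicate 2 (-0.011). Eif2ak3 was at -0.0097, -0.052 and -0.073 with upper quartile scaling, total counts and the length and GC correction, and between -0.065 (without male replicate 2) and 0.13 (without female replicate 1) when 1 library was left out, also below zero with female replicate 2 left out (-0.0030). Dnajb9 was at 0.014 without male replicate 1. With the length and GC correction Canx was at -0.0054, Atf6 at -0.20, Xbp1 at 0.077 and P4hb at 0.037, and with the replicate block added Canx was at -0.0046, Eif2ak3 at -0.066, Atf6 at -0.20, Xbp1 at 0.078 and P4hb at 0.037. The cause was not tested.

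Replicate numbers are shared between the sexes. Deviations from the mean of each sex correlated at -0.02, -0.10 and -0.15 between same-numbered libraries across 10812 genes. Between libraries of different number they correlated at -0.064 to 0.17. With 3 libraries per sex, centred within the sex, these values cannot decide whether same-numbered libraries share more than a number. With the replicate block 8525 genes were called in place of 8993, 12 chaperones lower and 9 ATF4 genes higher, and Slc3a2 and Atf6 lost their calls (adjusted p = 0.0502 and 0.0963). No library correlated best with its own number. Depth limits Atf3 and Chac1, with 20 to 165 counts per library.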

Other observations

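Stress genes of the cytosol and the mitochondria were outside the 36 genes. Without the length and GC correction, 3 of 18 cytosolic heat shock genes were higher (16.7%), 5 lower (27.8%) and 10 not called. These shares lay below the 30.9% and 29.8% of all tested genes, and the median was -0.05 on the log2 scale. The extremes were Hspa4l, an HSP110 family chaperone, at 123, 123 and 105 CPM in female and 16.5, 16.8 and 14.4 CPM in male libraries (log2 2.88 ± 0.10, edgeR adjusted p = 2.43e-13), and Cryab, the small heat shock protein alpha-B crystallin, with 11, 19 and 11 counts in female and 1053, 1134 and 1126 counts in male libraries (log2 -6.21 ± 0.19). The inducible genes Hspa1a and Hspa1b are near-identical copies and their split is uncertain. Of 11 mitochondrial stress genes 8 were lower (72.7%) and 1 higher, with a median of -0.47. The chaperonin pair Hspe1 and Hspd1 stood at 77.1 ± 2.43 against 183 ± 14.5 CPM (log2 -1.25 ± 0.08) and 249 ± 14.7 against 417 ± 9.23 CPM (log2 -0.74 ± 0.08, SD, n = 3), and the protease Clpp (-0.88) and the chaperone Trap1 (-0.61) were lower as well. With the length and GC correction 8 of the 18 heat shock genes were lower and 5 higher, where 30.3% of all tested genes were lower and 28.7% higher. The share of lower heat shock genes was then above that of all tested genes. Of the 11 mitochondrial genes 8 were lower and 2 higher with the correction.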
